A study of Mus musculus with 4 samples.

Results

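Chromatin accessibility was examined at 10 genes that encode inflammatory cytokines and mediators of macrophages, namely Tnf, Il1a, Il1b, Il1rn, Il6, Il10, Il12b, Il18, Nos2 and Ptgs2. They were chosen by name for this role, without a threshold on any measured value but with earlier results of these data known. They are 10 of 21286 protein-coding genes whose strand was known. For each gene, every ATAC-seq peak was read from 20 kb before the 5′ end to 10 kb past the 3′ end, and a promoter peak was a peak with its summit within 1 kb of the transcription start site (TSS, the 5′ end of the gene). ATAC-seq uses the Tn5 transposase, which inserts sequencing adapters where DNA is accessible. All libraries were made from RAW264.7 cells, a virus-transformed mouse macrophage line that the labels give as wild type (WT), and all cells were exposed to 25 ug/mL oxidized LDL with a fluorescent label (DIL-oxLDL) over 24 h. The control group (n = 2) was given DMSO without esculetin, and the esculetin group (n = 2) was given 40 ug/mL of this plant coumarin. A cell line has no other immune or vascular cells around it, and there was no group without oxLDL. The sources do not say whether the 2 libraries of a group came from separate cultures, so p-values measure only the spread between these libraries.

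Macrophages make these mediators when receptors such as the Toll-like receptors sense microbial or damaged material. NF-κB, AP-1, C/EBPβ and interferon regulatory factors then act on promoters and enhancers that the lineage factor PU.1 has opened beforehand. Many of these genes are nearly silent in resting cells and are switched on within hours. TNF and the IL-1 cytokines start inflammation, IL-6, IL-12 and IL-18 carry it to other cells, IL-10 and the IL-1 receptor antagonist limit it, and the enzymes encoded by Nos2 and Ptgs2 make nitric oxide and prostaglandins.

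The peak lists of control replicates 1 and 2 were 19595 and 27833 peaks long, and those of esculetin replicates 1 and 2 were 8677 and 12792 peaks long. Depth, solved from the lists as the genome-wide background coverage, was 6.51, 4.08, 4.97 and 4.10 reads in the same order. Over that background, the weakest listed summit had a coverage of 17, 13, 15 and 13 reads, which is 2.61, 3.19, 3.02 and 3.17 times the background. A locus without a call can therefore hold signal under these limits, or above them where the local background was raised. Of 12 macrophage marker genes, a promoter peak was found at 6 and 7 in the controls (50% and 58.3%) and at 1 and 3 after esculetin (8.33% and 25%), where the shares of all coding genes were 37.4% and 38.8% against 27.9% and 35.0%. Ptprc, which encodes CD45 (percentiles 56.4 and 46.3), and Fcgr1, an Fc receptor gene (47.5 and 51.4), were called in both controls alone. Spi1, which encodes PU.1, had one in all 4 libraries, whereas Csf1r, Adgre1, Itgam and Mertk had none in any library. None of 6 T cell, 6 B cell, 8 kidney epithelial and 8 endothelial or stromal marker genes had a promoter peak in any library. Control replicate 2 stood apart in that 6.39% of its summits lay inside annotated pseudogenes, against 1.55% in the other control and 0.827% and 0.513% after esculetin. Summits in the last of 10 equal parts of coding genes of at least 5 kb were also more frequent in that library (8.42%) than in the other control (3.39%) or after esculetin (1.64% and 1.74%).

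The promoters themselves are shown first, because nearly all of them lacked a peak. RefSeq promoter sequences (GRCm38.p6, the assembly behind mm10), from 250 bases before to 50 bases after an annotated start, were found for 8 of the 10 genes, all except Il10 and Nos2. The RefSeq start of Il1a lies 214 bp inside the 5′ end used for peak distances, and that of Il1b 25 bp inside it. The sequences below belong to the 2 genes with a promoter peak in any library (Ptgs2 and Il18) and to Il1b, which had a peak nearby in both esculetin libraries. Also printed are Tnf, the gene with the most peaks in its window, and Il6, the only promoter of the 8 with an NF-κB match. Il6 had 1 peak in its window, whereas Il1rn and Il12b, whose promoters are not printed, had none. Capitals mark matches on either strand to the TATA box (TATAAA), the CRE half-site (TGACGT), the C/EBP motif (TTNNGNAA) and the NF-κB motif.
Ptgs2 promoter, chr1:150099781-150100080, plus strand: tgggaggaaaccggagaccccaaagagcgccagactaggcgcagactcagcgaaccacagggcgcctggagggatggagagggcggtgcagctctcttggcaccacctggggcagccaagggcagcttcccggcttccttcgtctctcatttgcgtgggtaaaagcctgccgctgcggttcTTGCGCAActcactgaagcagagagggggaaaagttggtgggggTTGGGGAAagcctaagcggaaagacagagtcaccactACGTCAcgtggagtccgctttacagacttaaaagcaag
Il18 promoter, chr9:50554450-50554749, plus strand: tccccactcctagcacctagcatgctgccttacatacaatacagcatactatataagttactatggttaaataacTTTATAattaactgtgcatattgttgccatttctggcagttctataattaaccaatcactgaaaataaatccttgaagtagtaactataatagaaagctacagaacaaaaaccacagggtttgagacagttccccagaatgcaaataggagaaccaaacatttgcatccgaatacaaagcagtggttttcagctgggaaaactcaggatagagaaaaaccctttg
Il1b promoter, chr2:129371090-129371389, minus strand: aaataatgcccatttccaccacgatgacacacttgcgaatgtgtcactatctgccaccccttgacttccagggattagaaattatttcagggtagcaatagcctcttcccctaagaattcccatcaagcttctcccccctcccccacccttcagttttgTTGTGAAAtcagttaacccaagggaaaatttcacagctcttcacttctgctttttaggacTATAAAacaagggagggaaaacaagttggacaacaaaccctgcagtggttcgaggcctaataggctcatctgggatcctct
Tnf promoter, chr17:35201958-35202257, minus strand: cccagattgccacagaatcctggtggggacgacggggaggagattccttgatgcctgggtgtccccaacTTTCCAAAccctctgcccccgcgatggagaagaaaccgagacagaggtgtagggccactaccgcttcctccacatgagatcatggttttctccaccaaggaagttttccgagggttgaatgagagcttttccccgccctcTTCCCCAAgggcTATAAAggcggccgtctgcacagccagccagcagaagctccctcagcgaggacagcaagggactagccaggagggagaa
Il6 promoter, chr5:30012864-30013163, plus strand: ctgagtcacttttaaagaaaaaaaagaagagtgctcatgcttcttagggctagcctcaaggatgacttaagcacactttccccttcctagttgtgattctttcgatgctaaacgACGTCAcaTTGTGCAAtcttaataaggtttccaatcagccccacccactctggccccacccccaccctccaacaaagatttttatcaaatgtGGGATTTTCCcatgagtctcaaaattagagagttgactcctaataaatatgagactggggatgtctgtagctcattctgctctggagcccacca

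Of the 8 promoters, 7 were poorer in CpG dinucleotides than the median coding promoter. The ratio of observed to expected CpG was 0.05 in Il1rn, 0.10 in Il18, 0.20 in Il1b, 0.21 in Il6, 0.23 in Il12b, 0.33 in Il1a, 0.44 in Tnf and 0.62 in Ptgs2. The median over 17491 coding promoters was 0.58, and Ptgs2 lay just over it. The TATA box was found in 4 of the 8 promoters, 31 bases before the start in Il1b, 32 in Il1a, 29 in Tnf, and, on the opposite strand, 175 in Il18. It was found in 13.3% of all coding promoters. The C/EBP motif was found in 5 of the 8 (Il1a, Il1b, Il6, Ptgs2 and Tnf) and in 37.8% of coding promoters. In Ptgs2 a C/EBP match began 69 bases before the annotated RefSeq start and a CRE half-site 12 bases after it. Where transcription begins in these cells was not measured. The CRE half-site was found in Il6 and Ptgs2 and in 8.71% of coding promoters. The NF-κB motif (searched in its 10-letter consensus form) was found in Il6, beginning 44 bases before the start, and in 8.86% of coding promoters. The AP-1 motif (TGANTCA) was found in Il1a, Il1rn and Il6 and in 7.03% of coding promoters. The CCAAT box (CCAAT) was found in 3 of the 8 against 39.2% of coding promoters, and the Sp1 GC box (GGGCGG) in 2 of the 8 against 46.3%. The PU.1 motif (GAGGAAGT) and an interferon regulatory factor motif (GAAANNGAA) were in none of the 8 windows, and in 3.14% and 8.24% of coding promoters. At shares this low, none in 8 windows cannot show that these promoters lack such sites. Other forms of these 2 motifs were not searched. All motifs were searched on both strands, and a match is a description of letters.

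In the libraries, the share of coding promoters with a peak rose with CpG content. The promoters were divided by CpG ratio into 4 classes of equal size. In class 1, with the lowest ratio, 4.76% and 4.78% of promoters had a peak in the controls, against 1.88% and 2.84% after esculetin. In class 4 these shares were 69.4%, 71.5%, 58.5% and 68.5%. Class 1 held Il1b, Il1rn, Il6 and Il18, class 2 held Il1a, Il12b and Tnf, and class 3 held Ptgs2. In class 2 the shares were 20.4% and 21.6% in the controls against 10.7% and 16.9% after esculetin, and in class 3 they were 57.3% and 59.2% against 43.0% and 54.0%.

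**Figure D1:**
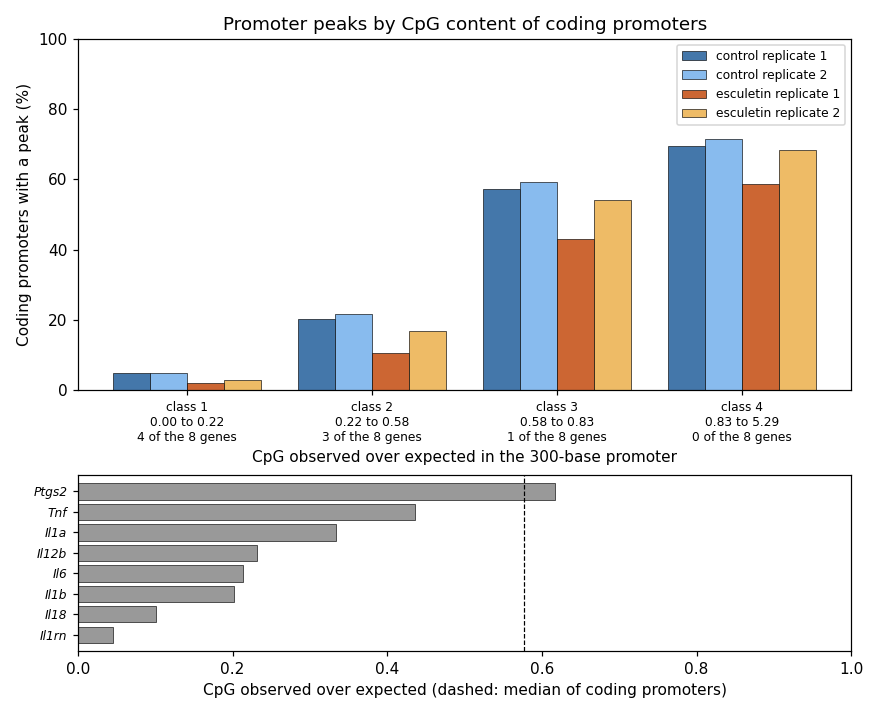
The upper panel plots the percent of coding promoters with a peak summit within 1 kb of the TSS (y axis) in each library, in 4 equal classes of the observed over expected CpG ratio (x axis), and the lower panel gives this ratio for the 8 genes with a promoter sequence. The share with a peak was under 5% in the lowest class in all 4 libraries, and 7 of the 8 genes lay under the median of 0.58.

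The question of the comparison was whether esculetin altered accessibility at these genes in oxLDL-treated macrophages. A promoter peak was called at Il18 in control replicate 1 and at Ptgs2 in control replicate 2, and at no gene of the 10 in either esculetin library. The count was thus 1 of 10 in each control library and 0 of 10 in each esculetin library, and the groups did not overlap (difference of means -1, two-sided exact permutation p = 0.33, the smallest value possible with 2 against 2 libraries). With the 8581 strongest peaks of each library the count was 0 in all 4 libraries. Over all coding genes, the share with a promoter peak was 37.4% and 38.8% in the controls against 27.9% and 35.0% after esculetin. No gene of the 10 had a promoter peak in all 4 libraries, where the share of all coding genes was 24.9%. None was called in both controls alone (3.34% of coding genes), and none in both esculetin libraries alone (0.413%). The other 8 had no promoter peak in any library, against 56.3% of coding genes. In these bulk libraries, fewer cells with an open site and less opening per cell cannot be told apart.

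In the wider windows, which were 32.6 to 69.4 kb long, 3 and 6 of the 10 genes had a peak in the controls against 5 and 5 after esculetin. The shares of coding genes with a peak in such a window were 61.0%, 66.2%, 45.0% and 54.9%. The windows of the 10 genes were shorter (median 39.4 kb) than those of coding genes (median 47.5 kb). The number of peaks in the windows was 6 and 12 in the controls against 7 and 5 after esculetin. The mean was 9.0 ± 4.24 against 6.0 ± 1.41 (SD, n = 2 per group), the groups overlapped, and the difference of -3 was smaller than the SD of the control group (exact permutation p = 0.67). Per 10000 peaks of the list, the direction was the opposite, with 3.06 and 4.31 in the controls against 8.07 and 3.91 after esculetin (exact permutation p = 0.67). With the 8581 strongest peaks of each library the counts were 2 and 1 in the controls against 7 and 3 after esculetin. The groups then did not overlap, with the esculetin libraries higher (exact permutation p = 0.33, the smallest possible). With windows of 50 kb before and past the gene the groups did not overlap, with 19 and 39 peaks against 14 and 15, nor with a −log10 q of at least 3, with 6 and 12 against 5 and 5 (exact permutation p = 0.33 for each, the smallest possible). Per 10000 peaks of the list they overlapped in both, with 9.70 and 14.0 against 16.1 and 11.7 in the windows of 50 kb, and 3.18 and 4.42 against 6.05 and 4.22 with this −log10 q (exact permutation p = 0.67 for each). The difference was -6 without control replicate 1, 0 without control replicate 2 and -0.5 without peaks at the TSS of another gene. The 30 peaks formed 18 regions, of which Tnf had 6, Il1b 3, Il1a, Il18 and Nos2 2 each, and Il6, Il10 and Ptgs2 1 each. Il1rn and Il12b had no peak in any library.

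**Figure D2:**
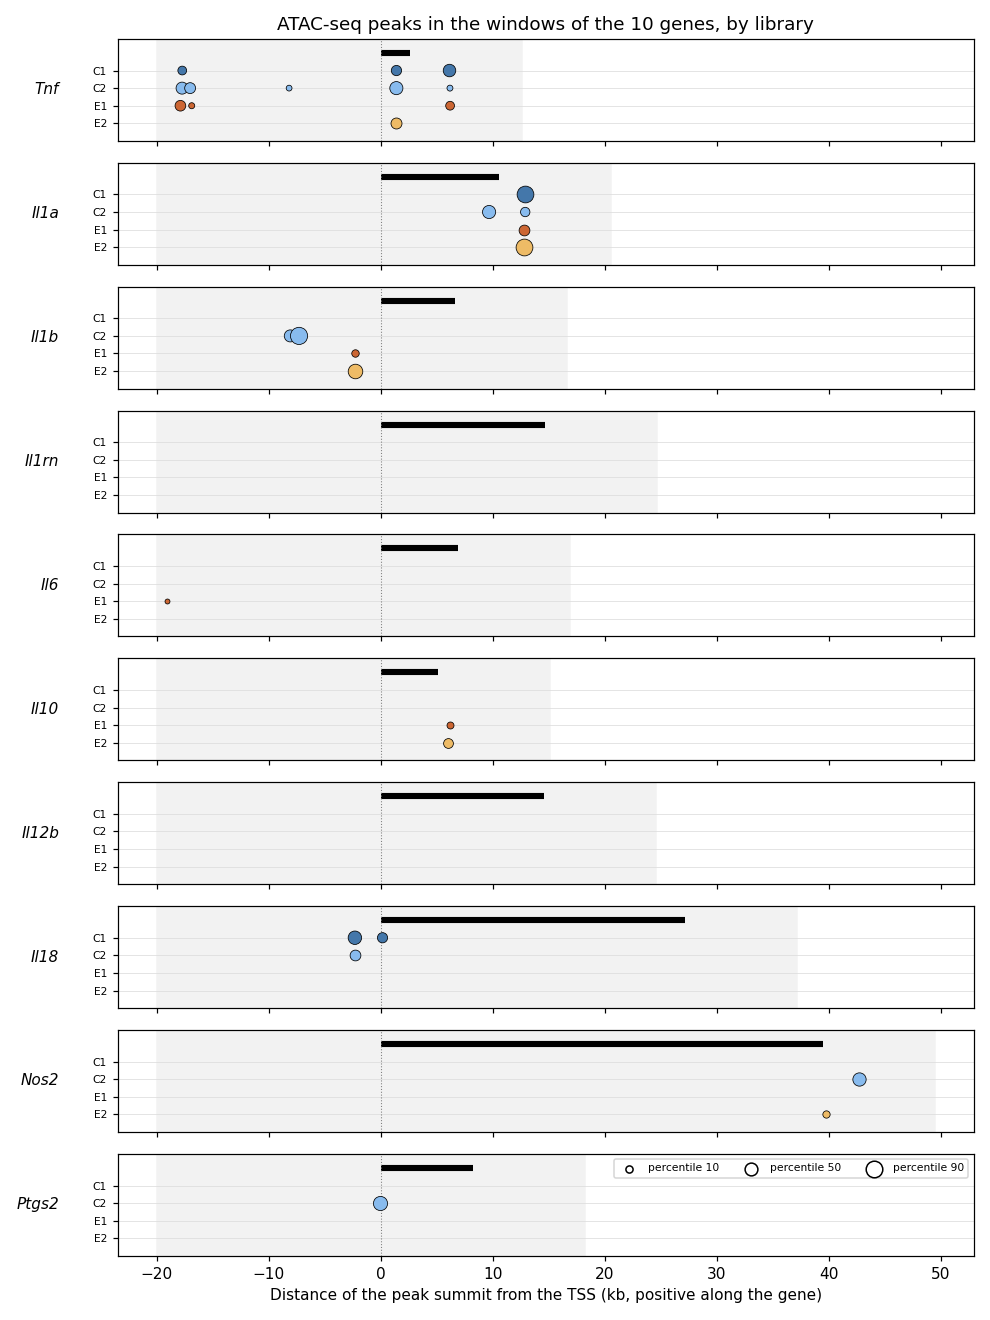
Each panel is the window of a gene (grey) with distance from the TSS in kb on the x axis, the gene as a black bar, and a row for each library (C1 and C2, control replicates; E1 and E2, esculetin replicates). A dot is a peak summit and its area grows with the percentile of the peak within its list. The windows of Il1rn and Il12b hold no dot, and dots lie within 1 kb of the TSS for Il18 and Ptgs2 alone. The closest Tnf dots lie 1379 to 1406 bp past its TSS, in C1, C2 and E2.

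Regions were compared by presence and by the percentile of their −log10 p within the list of each library, where 100 is the strongest peak. Of the 18 regions, 11 were called in 1 library only, against 56.3% of all 36037 regions, and 7 of the 18 were called in control replicate 2 alone, against 35.1% of all regions. A region called in all 4 libraries was found only once (17.2% of all regions), a region called in both controls alone once (13.9%), and a region called in both esculetin libraries alone in 2 cases (0.832%). These counts depend on single libraries. Without control replicate 1, control replicate 2, esculetin replicate 1 and esculetin replicate 2 in turn, 8, 2, 3 and 2 regions were called in the controls alone and 2, 2, 3 and 4 in the esculetin libraries alone. Without esculetin replicates 1 and 2 in turn, 2 and 3 regions were called in all other libraries. Of the 30 peaks, 21 lay under the 50th percentile of their list and 3 above the 90th. The median percentile of the peaks was 38.5 and 43.2 in the controls against 11.6 and 34.8 after esculetin, in lists of unequal length. On the scale of summit coverage over the genome-wide background the medians overlapped, with 5.22 and 7.23 times against 4.43 and 7.80 times.

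Tnf encodes tumour necrosis factor, the first cytokine released by activated macrophages, and lies between the lymphotoxin genes Lta and Ltb (chromosome 17, 35199367 to 35202007, minus strand). No library had a summit within 1 kb of its TSS. A region inside the gene (chromosome 17, 35200463 to 35200779) had summits 1406 and 1397 bp past the TSS in control replicates 1 and 2 and 1379 bp past it in esculetin replicate 2. Its percentile was 29.4 and 52.9 in the controls and 34.8 in esculetin replicate 2, and esculetin replicate 1 had no call. Its summit coverage was 30, 37 and 32 reads, which is 4.61, 9.07 and 7.80 times the background of these libraries. The esculetin value thus lay between the control values on both scales.

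A region inside Ltb, which encodes lymphotoxin beta, lay 6141 and 6181 bp past the Tnf TSS in the controls and 6194 bp past it in esculetin replicate 1. Its percentiles were 47.6 and 4.24 in the controls and 19.2 in esculetin replicate 1. A region 17.7 to 17.9 kb before Tnf, at the end of Nfkbil1, was called in the same 3 libraries with percentiles of 19.0, 43.1 and 32.5. In both regions the called esculetin library lay between the controls and esculetin replicate 2 had no call. The other 3 regions were each called once, 17010 and 8176 bp before the TSS in control replicate 2 (percentiles 34.1 and 3.63) and 16869 bp before it in esculetin replicate 1 (percentile 4.68). The esculetin libraries shared no called region at the Tnf locus, and the controls shared 3, each of which was also called in 1 esculetin library. The control lists were longer, with 19595 and 27833 peaks against 8677 and 12792. The part of list length in this contrast was not tested.

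Il1a encodes IL-1α, a cytokine that also acts as an alarm signal of dying cells. In its window a single region was called in all 4 libraries (chromosome 2, 129297035 to 129297511), and it was not its own promoter. The summits lay 8 to 84 bp from the TSS of the lncRNA gene Gm14023 and 58 to 134 bp from that of Ckap2l, which encodes a protein of the mitotic spindle. The percentiles were 91.9 and 23.1 in the controls against 33.2 and 92.4 after esculetin. The coverage was 49, 27, 25 and 56 reads, or 7.53, 6.62, 5.03 and 13.7 times the background. The groups overlapped on both scales. Control replicate 2 alone had a peak inside Il1a, 902 bp from its 3′ end (percentile 53.4), in the part of genes where summits were more frequent in that library. Whether that excess plays a part at Il1a was not tested.

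Il1b encodes IL-1β, which is cut to its active form by the inflammasome. No library had a promoter peak there. Both esculetin libraries had a peak before the gene (chromosome 2, 129373277 to 129373645), with summits 2307 and 2296 bp before the TSS that lay only 11 bp apart, and neither control library had a call. This region lies inside the lncRNA gene Il1bos on the opposite strand. Its percentile was 11.6 in esculetin replicate 1 and 67.4 in esculetin replicate 2. The coverage was 20 and 32 reads, or 4.02 and 7.80 times the background. Both heights exceed 2.61 and 3.19, the weakest listed summits of the controls over their genome-wide background, and the local background of the controls at this site is not known. Among all 300 regions called in both esculetin libraries only, it ranked 230 by its lower percentile, below the median of 24.2. In control replicate 1 the closest summit to the Il1b TSS lay 73.9 kb away. In control replicate 2 the closest summits lay 7288 and 8070 bp before the TSS, inside the pseudogene Spcs2-ps (percentiles 97.0 and 43.3), and no other library had these. With 6.39% of its summits in pseudogenes, control replicate 2 has such calls elsewhere too, and their part in this result was not tested.

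Il1rn encodes the IL-1 receptor antagonist, which blocks the receptor of both cytokines. No library had a peak in its window, and the other RefSeq starts of Il1rn, 8431 and 8511 bp into the gene, had none within 1 kb. The closest summits lay 440 and 72.5 kb from the TSS in the controls and 583 and 48.2 kb from it in the esculetin libraries.

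Il10 encodes the main anti-inflammatory cytokine of macrophages. It was the other gene with a region called in both esculetin libraries and neither control (chromosome 1, 131025781 to 131026141), with summits 910 to 1076 bp past its 3′ end. These lay 6201 and 6035 bp past the TSS, with percentiles of 9.11 and 25.9. The coverage was 21 and 20 reads, or 4.23 and 4.88 times the background. These peaks were weak, ranking 247 of 300 among the regions of this class. In the controls the closest summits to the TSS lay 23.0 and 18.5 kb away.

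Il6 encodes IL-6, which drives the acute phase response, and Il12b encodes the p40 chain shared by IL-12 and IL-23. At Il6 a single peak was called, 19073 bp before the TSS in esculetin replicate 1, with a percentile of 0.449 and a coverage of 16 reads (3.22 times the background). At Il12b no peak was called, and the closest summits lay 62.8 and 70.4 kb from the TSS in the controls and 62.7 and 70.5 kb from it in the esculetin libraries. The Il6 promoter printed above, with its NF-κB, CRE and C/EBP letters, held no summit in any library.

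Il18 encodes IL-18, a cytokine that induces interferon gamma. Its TSS lies inside Bco2, a carotenoid-cleaving enzyme gene of the opposite strand. Control replicate 1 had the promoter peak, 163 bp past the Il18 TSS and 351 bp from that of Bco2 (percentile 28.8, coverage 31 reads, 4.76 times the background). Both controls also had a peak before the gene (chromosome 9, 50552308 to 50552533), with summits 2304 and 2307 bp before the TSS. Its percentiles were 56.1 and 33.0 and its coverage 39 and 29 reads, or 5.99 and 7.11 times the background. Both heights exceed 3.02 and 3.17, the weakest listed summits of the esculetin libraries over their genome-wide background. The local background of the esculetin libraries at this site is not known. This region was the only one of the 18 called in both controls and neither esculetin library, and it ranked 2392 of 4993 in that class by its lower percentile. The closest esculetin summits lay 26.0 and 25.9 kb from the Il18 TSS. The local background of both control peaks was raised, with 9.42 reads against 6.51 genome-wide in control replicate 1 and 6.80 against 4.08 in control replicate 2, and the fold over it was 3.84 and 3.85.

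Nos2 encodes inducible nitric oxide synthase, and Ptgs2 encodes cyclooxygenase-2, the inducible enzyme of prostaglandin synthesis. At Nos2 no summit lay before or inside the gene. Esculetin replicate 2 had a peak 270 bp past its 3′ end (percentile 10.7), and control replicate 2 had another 3238 bp past it, inside Lgals9 (percentile 54.7). At Ptgs2 the peak of control replicate 2 (chromosome 1, 150099588 to 150100338) was 751 bp wide with its summit 70 bp before the TSS, over the promoter printed above and 87 bp from the TSS of the lncRNA gene Ptgs2os. Its percentile was 63.5 and its coverage 30 reads, 7.35 times the background. It was not called in the other control, where the closest summit lay 43.8 kb away, and in the esculetin libraries the closest summits lay 293 and 65.0 kb away. The Ptgs2 call thus rests on a single control library, as does that at the Il18 promoter.

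**Figure D3:**
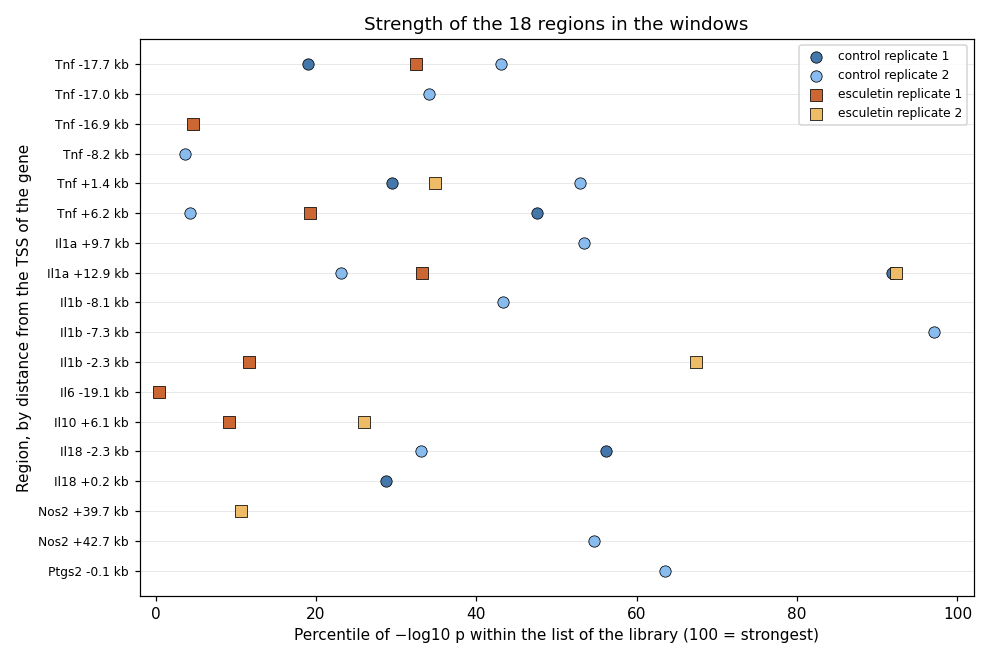
Each row is a region in the window of a gene, named by the distance of its median summit from the TSS, and the x axis is the percentile of its −log10 p within the list of each library, with circles for control and squares for esculetin libraries. A row of Il1b and that of Il10 hold squares of both esculetin libraries and no circle, a row of Il18 before its TSS holds circles of both controls alone, and the region called in all 4 libraries (Il1a +12.9 kb) spans 23.1 to 92.4.

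The genes that act around these mediators were read in the same way, from 5 lists of receptors, other cytokines, processing enzymes, regulators of mRNA turnover and lipid mediator or nitric oxide enzymes. These lists, too, were chosen with earlier results of these data known. Of 77 genes, a promoter peak was called at 30 and 34 in the controls against 17 and 26 after esculetin. The mean was 32.0 ± 2.83 against 21.5 ± 6.36 (SD, n = 2 per group), and the difference of -10.5 exceeded either SD (exact permutation p = 0.33, the smallest possible). It was -6 without esculetin replicate 1. As shares the counts are 39.0% and 44.2% against 22.1% and 33.8%, where those of all coding genes were 37.4% and 38.8% against 27.9% and 35.0%. With the 8581 strongest peaks of each library the direction was the opposite, with 16 and 8 genes in the controls against 17 and 21 after esculetin. The groups did not overlap with the full lists or with the strongest peaks (exact permutation p = 0.33 for each, the smallest possible). A promoter peak was called in both controls alone at 7 of the 77 genes, against 3.34% of coding genes, and in both esculetin libraries alone at 1, against 0.413%.

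Among 22 other cytokines and growth factors, 8 and 7 had a promoter peak in the controls against 2 and 4 after esculetin. As shares this is 36.4% and 31.8% against 9.09% and 18.2%, where those of all coding genes were 37.4% and 38.8% against 27.9% and 35.0%. A call in both controls alone, found at 3 of the 22, was found at 3.34% of coding genes. Csf1, the growth factor of macrophages (percentiles 11.4 and 7.55), Il15, which maintains lymphocytes (4.10 and 44.3), and Tnfsf13b, the B cell survival factor BAFF (16.3 and 47.2), were called in both controls alone. Hmgb1, a nuclear protein that acts as an alarm signal outside cells, had percentiles of 88.7 and 74.6 in the controls against 38.7 and 86.5 after esculetin. Tgfb1, an anti-inflammatory cytokine, had 0.464 and 17.8 in the controls against 17.2 and 9.21 after esculetin. In both genes the groups overlapped. No promoter peak was called in any library at 14 of the 22, among them the inducible cytokine genes Lta, Ltb, Ifnb1, Il12a and Il27, named after their values were seen. Over all coding genes the share without a promoter peak in any library was 56.3%.

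Among 18 receptors and binding proteins, 5 and 9 had a promoter peak in the controls against 2 and 6 after esculetin. As shares this is 27.8% and 50% against 11.1% and 33.3%, where those of all coding genes were 37.4% and 38.8% against 27.9% and 35.0%. Il6ra, the IL-6 receptor, was called in both controls alone (86.6 and 43.9). Il6st, its signalling chain gp130, had percentiles of 76.1 and 80.4 in the controls against 57.8 and 76.0 after esculetin. Ptger4, a prostaglandin E2 receptor, had 28.8 and 68.0 in the controls against 18.7 and 78.5 after esculetin. Among 12 genes of cytokine processing and the inflammasome, 4 and 4 had a promoter peak in the controls against 3 and 4 after esculetin (33.3% and 33.3% against 25% and 33.3%). Adam17, the protease that releases TNF, had percentiles of 89.2 and 62.4 in the controls against 81.8 and 71.4 after esculetin. Txnip, a thioredoxin-binding protein, had 76.9 and 79.2 in the controls against 95.7 and 86.4 after esculetin. No promoter peak was called in any library at 6 of the 12 genes, against 56.3% of coding genes. The 6 include the sensor Nlrp3, the adaptor Pycard and the protease Casp1, named after their values were seen.

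Of the 5 lists, the 9 genes of mRNA turnover and feedback had the highest share with a promoter peak in each library (66.7% to 77.8%, against 27.9% to 38.8% of coding genes), 6 and 7 of them in the controls against 7 and 7 after esculetin. Zfp36l1, which encodes a protein that binds AU-rich elements and speeds the decay of cytokine mRNAs, was the gene of the 77 called in both esculetin libraries alone (64.1 and 81.4). Its relative Zfp36l2 had percentiles of 75.9 and 63.2 in the controls against 70.8 and 70.0 after esculetin. Elavl1, which encodes the mRNA-stabilizing protein HuR, had 90.04 and 77.1 in the controls against 80.6 and 87.4 after esculetin. Among 16 eicosanoid and nitric oxide enzymes, 7 and 7 had a promoter peak in the controls against 3 and 5 after esculetin (43.8% and 43.8% against 18.8% and 31.2%). A call in both controls alone was found at 3 of the 16, against 3.34% of coding genes. Alox5ap, which activates 5-lipoxygenase (25.3 and 60.5), Pla2g4a, which frees arachidonic acid (29.7 and 52.0), and Ptgs1, the constitutive cyclooxygenase (38.5 and 17.5), were called in both controls alone. Lta4h, an enzyme of leukotriene synthesis, had percentiles of 90 and 94.1 in the controls against 48.2 and 61.9 after esculetin. Ptges3, a prostaglandin E synthase, had 70.8 and 63.6 in the controls against 82.7 and 69.2 after esculetin.

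Against a share of 24.9% of coding genes, a promoter peak in all 4 libraries was found at 16 of the 77 genes. In 4 of them (Il6st, Nek7, Mapkapk2 and Lta4h) both esculetin percentiles lay under both control percentiles, where the share over coding genes called in all libraries was 29.5%. In 2 of them (Txnip and Dusp1) both lay over the control percentiles, against 14.7%. Nek7, Mapkapk2 and Dusp1 were named after their values were seen. These shares were near the background, and percentiles also depend on the length of the list.

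**Figure D4:**
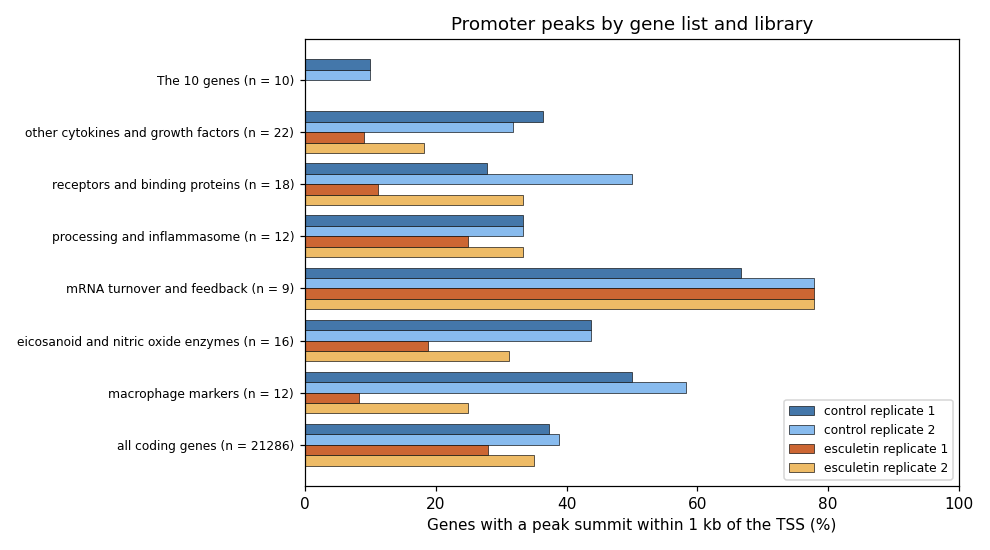
Bars give the percent of genes (x axis) with a peak summit within 1 kb of the TSS in each of the 4 libraries, for the 10 cytokine and mediator genes, the 5 lists around them, 12 macrophage markers and all 21286 coding genes. The 10 genes stand at 10% in each control library and 0% in each esculetin library, and the mRNA turnover list stands highest, between 66.7% and 77.8%.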

How the data were processed

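ATAC-seq peak lists of 4 RAW264.7 libraries were used, 2 of the control group and 2 of the esculetin group, grouped by the treatment in the labels. Per the methods of the study and the labels, the authors used Trim Galore for trimming, Bowtie2 for alignment to mm10, Sambamba to drop duplicate and multi-mapping reads, and MACS2 to call peaks library by library. Peak caller options and any Tn5 shift are not given in the sources used here. The deposited lists give for each summit the fold enrichment (a linear ratio), the −log10 p, the −log10 q and a score made from it. These values grow with depth and were compared as percentiles within each list. Without read counts, no count model was run.

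Summit coverage and background were solved from the fold and the −log10 p under the Poisson model of MACS2, and tested on simulated data. Coverage was divided by the genome-wide background to give heights in multiples of it. Genes came from RefSeq (GRCm38.p6), with the strand from its promoter table or, for the rest, from GENCODE vM39, without its coordinates. A strand was found for 44213 of 49939 genes. Exons of this build were not used. Regions were peaks merged at 1 bp overlap. Counts were compared by two-sided exact permutation tests over libraries. Values named in the text are all peaks of the 10 genes, list genes whose promoter call separates the groups, and the 2 genes of each list with the highest lower percentile over the libraries. Other list genes were named after their values were seen. The members and lists were chosen with earlier results of these data known. Il36g was listed but not matched by symbol. The tools were SciPy 1.17.1, matplotlib 3.10.9, NumPy 2.4.6 and pandas 2.3.3 under Python 3.11.15.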

Additional observations from a re-analysis of the deposited data

How the results depend on the processing

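With 2 libraries per group, 0.33 is the smallest p of the exact permutation test, so only directions and sizes are described. Any start of the RefSeq promoter table and the values per 10000 peaks of the list were alternatives chosen after seeing the data. The number of the 10 genes with a promoter peak (difference -1) kept its direction in all alternatives except the 8581 strongest peaks of each list, where it was 0 because both promoter peaks ranked below that length. With a promoter distance of 2 kb it was -1.5, since Tnf then counted in 3 libraries. It was -1 with each library left out in turn. The number of peaks in the windows (-3) was 3.5 with the strongest peaks, 2.30 per 10000 peaks of the list (1.34 with a −log10 q of at least 3 and 2.08 with windows of 50 kb), -4 with a −log10 q of at least 3, -1.5 and -14.5 with windows of 5 and 50 kb before and past the gene, -0.5 without peaks at the TSS of another gene, and -6 to 0 when a library was left out. The pathway promoter peaks (-10.5) were 7 with the strongest peaks and -15 to -6 when a library was left out. The labels number the libraries 1 and 2 in each group, but the peak names inside the esculetin lists carry other numbers, and nothing says that a number pairs cultures. With the replicate block the differences were the same, -1, -3 and -10.5, with exact sign-flip p of 0.5, 1 and 0.5, where 0.5 is the smallest possible.

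Regions called in both esculetin libraries only (2) were 1 with the strongest peaks, and 2 to 4 when a library was left out. Regions called in both controls only (1) were 0 with the strongest peaks, 3 with windows of 50 kb before and past the gene, and 2 to 8 when a library was left out, where 8 is the value without control replicate 1. Regions called in all libraries (1) were 0 with the strongest peaks, 5 with windows of 50 kb, 0 without peaks at the TSS of another gene, and 1 to 3 when a library was left out. The percentile of the Il18 promoter peak (28.8) was 26.0 among peaks with a −log10 q of at least 3, 23.4 by the fold, 37.4 by the height and 14.3 among promoter peaks. That of Ptgs2 (63.5) was 62.6, 72.4, 52.3 and 45.8 in the same order. Neither has a value among the strongest peaks or without its library. Regions and percentiles were not fitted with the block. Exact counts behind a missing call are not known, so a missing call limits only a signal over the background.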
